A study of Homo sapiens with 16 samples.

Results

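The genes described here are 7 that mark the oncogenic programmes and the D-type cyclins of multiple myeloma, namely NSD2, FGFR3, MAF, MYC, CCND1, CCND2 and CCND3. They were found as all probes whose RefSeq accession in the scanner files maps to 1 of these symbols, which gave 12 of 50599 gene probes and 7 of 20503 named genes. NSD2 had 5 probes, FGFR3 had 2 and the others had 1 each. All values come from LP-1, an established human myeloma cell line. A lentiviral vector put either cIAP2 (an inhibitor of apoptosis, encoded by BIRC3) and the fluorescent marker eGFP into the cells, for LP-1-cIAP2-eGFP, or eGFP without cIAP2, for the control LP-1-eGFP, and transduced cells were sorted by fluorescence. Each line was left untreated or was given 10 nM bortezomib, a proteasome inhibitor, and RNA was taken at 6 h and at 24 h, with 2 biological replicates in each of the 8 conditions, so 16 one-colour arrays in all. One transduced population per vector was measured, so a difference between the lines rests on 1 pair of populations. In RNA from whole cultures, fewer cells that express a gene and less RNA per cell cannot be told apart.

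BIRC3 has 1 probe on the array, which does not check the labels. By the study's methods it lies in the untranslated end of the transcript, so it reads RNA of the cells' own gene and not that of the vector, and cIAP2 overexpression in LP-1-cIAP2-eGFP was checked there by RT-qPCR instead. The probe read 11.92 to 12.13 on the 4 untreated arrays of LP-1-cIAP2-eGFP and 13.54 to 13.67 on the 4 of LP-1-eGFP, a log2 difference of -1.57 ± 0.11 (SE, adjusted p = 2.24e-05 in limma). The lines are called the cIAP2 line and the control line from here on.

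One array stood apart. The first replicate of the cIAP2 line at 24 h of bortezomib had a median log2 signal of 3.18 before normalization, against 5.73 to 6.64 on the other 15 arrays, and 35.5% of its spots were well above background, against 49.0% to 71.1%. For the 24 h comparisons, the line comparison and the list counts that moved, values without it are given as well, a setting chosen after seeing the data. The labelled cell type was checked against its markers. All 8 plasma cell markers were detected above background, 7 of them on 16 arrays and PRDM1 on 15. Among the B cell markers PAX5, MS4A1 and CD22, the first pair was above background on no array and CD22 on 1. Among 6 markers of other cell types, EPCAM was above background on 2 arrays, CD3E and COL1A1 on 10, CD14 on 13 and PECAM1 on 15, and LYZ had no matched probe.

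Myeloma cells are malignant plasma cells, and many carry a translocation that places an oncogene beside the immunoglobulin heavy chain enhancers. In the t(4;14) translocation, which LP-1 carries, both NSD2, a methyltransferase for histone H3, and FGFR3, a receptor tyrosine kinase for fibroblast growth factors, come under such enhancers. MAF is a large MAF leucine zipper factor and MYC a helix-loop-helix factor of growth and ribosome genes. Nearly every myeloma expresses at least 1 D-type cyclin, the partners of CDK4 and CDK6 that drive phosphorylation of the retinoblastoma protein in G1, and CCND2 is a known target of MAF.

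At 24 h of bortezomib, 5 of the 6 genes that could be tested fell and 1 did not pass the test. The 5 were CCND2, FGFR3, MYC, NSD2 and MAF, and the other was CCND3. A call here is an adjusted p under 0.05 in limma, with the Benjamini-Hochberg adjustment over all 33731 probes tested, and 34.8% of all probes were called in this comparison, while 19.7% of all probes were called lower. All 10 tested probes of the 5 genes were called lower. At 6 h, 0 of the 6 genes were called in the average over the lines, where 5.93% of all probes were. CCND1 was detected above background on 0 of the 16 arrays. With a change of more than 2-fold required as well, 3 of the 6 genes were called at 24 h, against 17.2% of all probes.

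**Figure D1:**
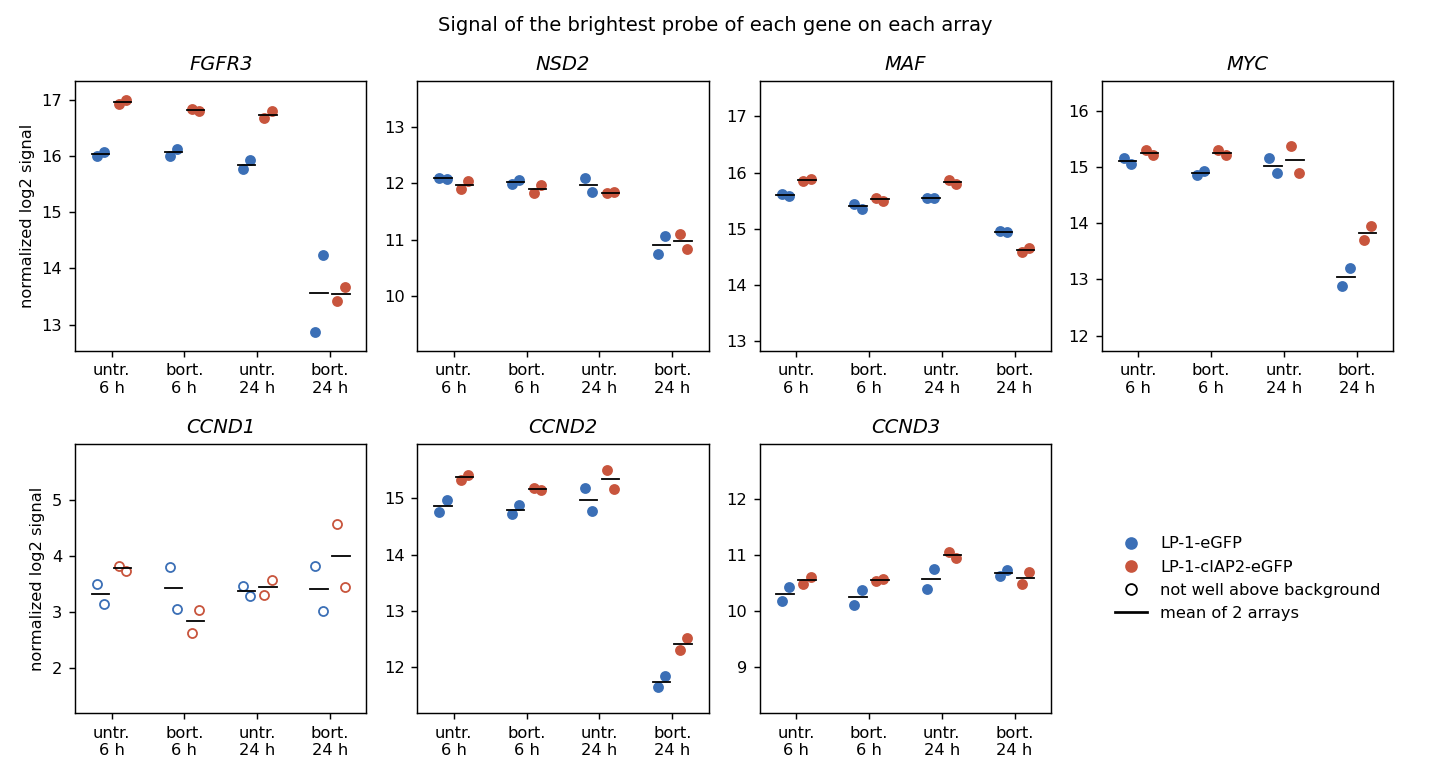
Normalized log2 signal (y axis) of the brightest probe of each gene on each of the 16 arrays, by treatment and time (x axis), with 1 point per array, a bar for the mean of 2 arrays, colour for the line and open points for values under the background limit, with lines named as labelled; every panel spans the same number of log2 units. In CCND2, FGFR3, MYC, NSD2 and MAF the 4 arrays of 24 h bortezomib lie below all others, in CCND3 they do not, and all CCND1 points are open.

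FGFR3, the receptor, was measured by its brighter probe (A_23_P500501) on all 16 arrays. In the control line its normalized log2 signal was 15.996 and 16.07 untreated and 16.001 and 16.12 with bortezomib at 6 h, and 15.76 and 15.92 untreated and 12.87 and 14.23 with bortezomib at 24 h. In the cIAP2 line it was 16.92 and 17.00 untreated and 16.84 and 16.80 with bortezomib at 6 h, and 16.67 and 16.80 untreated and 13.41 and 13.66 with bortezomib at 24 h. The 4 arrays of 24 h bortezomib were lower than the other 12, and on this probe the replicates of the control line there were the farthest apart of any condition. Averaged over the lines, FGFR3 fell at 24 h to 14.9% of the untreated level (log2 difference -2.74 ± 0.24 (SE), adjusted p = 1.84e-05 in limma, 4 arrays against 4). Its second probe (A_23_P212830) gave a log2 difference of -3.43 ± 0.45 (adjusted p = 2.22e-04), and -2.80 ± 0.20 (adjusted p = 1.01e-05) without the dim array, where it read 5.67 and was not above background. In the order of the 8 conditions, the 3 conditions of the cIAP2 line other than 24 h bortezomib came first, the same 3 of the control line followed, and both 24 h bortezomib conditions came last. The last pair overlapped, with means of 13.55 and 13.54.

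NSD2 lies next to FGFR3 on chromosome 4 and encodes the histone methyltransferase of the same translocation. Its brightest probe (A_23_P389919) read 12.10 and 12.09 untreated and 11.99 and 12.06 with bortezomib at 6 h in the control line, and 12.09 and 11.84 untreated and 10.74 and 11.06 with bortezomib at 24 h. In the cIAP2 line it read 11.91 and 12.04 untreated and 11.83 and 11.97 with bortezomib at 6 h, and 11.83 and 11.84 untreated and 11.11 and 10.83 with bortezomib at 24 h. The 24 h bortezomib arrays of both lines overlapped with each other and lay below all the rest, while neighbours among the other 6 conditions mostly overlapped. NSD2 fell to 51.2% of untreated (log2 difference -0.97 ± 0.11, adjusted p = 1.23e-04 in limma), so by less than 2-fold on this probe. The other 4 probes gave -1.25, -0.85, -0.66 and -1.45, and all 4 passed the test. The dimmest of them (A_23_P398530) was under the background limit on both arrays of the cIAP2 line at 24 h of bortezomib, so the size of its fall is not exact.

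MAF, the transcription factor, read 15.63 and 15.58 untreated and 15.45 and 15.36 with bortezomib at 6 h in the control line, and 15.54 and 15.55 untreated and 14.96 and 14.94 with bortezomib at 24 h. In the cIAP2 line it read 15.86 and 15.88 untreated and 15.55 and 15.50 with bortezomib at 6 h, and 15.86 and 15.80 untreated and 14.58 and 14.67 with bortezomib at 24 h. Replicates of MAF were close together, and within each line the 24 h bortezomib arrays were lowest and the 6 h bortezomib arrays next. MAF fell at 24 h to 53.5% of untreated (log2 difference -0.90 ± 0.08, adjusted p = 2.15e-05 in limma). At 6 h its log2 difference was -0.27 ± 0.08 and missed the threshold (adjusted p = 0.0965 in limma). It passed at 6 h when arrays were weighted by their quality (adjusted p = 0.00746), when only probes above background on all arrays were tested (adjusted p = 0.00768) and without the dim array (adjusted p = 0.0240).

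Of the 7 genes, 4 have an entry in the RefSeq promoter table used (assembly GRCh38.p14), which are FGFR3, NSD2, MAF and CCND3. The 250 bases before the start of FGFR3, NSD2 and MAF are shown because these 3 genes fell together at 24 h while the start region of MAF differs from those of FGFR3 and NSD2. Capitals mark the letters GGGCGG (the GC box, on both strands, so CCGCCC on the strand shown), TATAAA (the TATA box) and TGACGTCA (the cAMP response element, the same on both strands). CACGTG (the E-box bound by MYC and MAX) and TGCTGAC (the core part of a site bound by MAF factors) were searched too, on both strands, and had no match in these 3 windows. Matches to GGGCGG overlap each other in the window of NSD2.
FGFR3, chr4:1793043-1793292, plus strand: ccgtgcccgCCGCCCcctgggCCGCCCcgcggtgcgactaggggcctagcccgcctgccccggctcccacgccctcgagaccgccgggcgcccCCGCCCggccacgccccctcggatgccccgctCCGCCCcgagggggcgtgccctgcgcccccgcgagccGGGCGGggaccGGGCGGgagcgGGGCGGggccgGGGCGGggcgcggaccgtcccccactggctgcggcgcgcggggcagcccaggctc
NSD2, chr4:1871143-1871392, plus strand: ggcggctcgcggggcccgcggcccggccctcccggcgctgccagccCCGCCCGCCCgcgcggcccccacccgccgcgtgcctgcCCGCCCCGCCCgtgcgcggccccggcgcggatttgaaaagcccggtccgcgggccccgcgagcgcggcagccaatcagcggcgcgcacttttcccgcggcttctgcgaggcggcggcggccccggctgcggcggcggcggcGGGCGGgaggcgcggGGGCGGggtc
MAF, chr16:79600738-79600987, minus strand: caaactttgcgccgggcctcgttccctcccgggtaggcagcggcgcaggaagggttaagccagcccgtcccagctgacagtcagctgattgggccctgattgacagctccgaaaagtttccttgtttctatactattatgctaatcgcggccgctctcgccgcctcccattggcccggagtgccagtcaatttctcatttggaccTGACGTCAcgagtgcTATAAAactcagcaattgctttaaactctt

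The FGFR3 window was 86.8% G and C and held 8 matches to GGGCGG, and the NSD2 window was 86.0% G and C and held 6. GGGCGG occurs in 42.6% of all 35116 upstream windows of this length. The MAF window was 54.4% G and C, held no GGGCGG and had TGACGTCA and TATAAA once each, which occur in 1.65% and 10.72% of all windows. CACGTG occurs in 6.34% and TGCTGAC in 3.43% of them. In MAF, TATAAA began 30 bases and TGACGTCA 45 bases before the transcription start. CCND3, which was not called at 24 h, has 3 starts in the table. Its 3 windows were 74.4%, 71.2% and 61.2% G and C. They held 5, 2 and 0 matches to GGGCGG in the same order, so these matches were not limited to genes that fell. TGCTGAC occurs in 1 of the 3 windows, the last. All matches describe the letters in windows of the reference assembly, and binding was not measured. Which starts LP-1 uses, with its translocation, was not tested.

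MYC, the helix-loop-helix factor, was measured by 1 probe (A_23_P215956) that is spotted 10 times on each array. The SD between spots of an array had a median of 0.04 log2 units and was largest on the dim array, at 0.49. MYC read 15.17 and 15.06 untreated and 14.86 and 14.92 with bortezomib at 6 h in the control line, and 15.16 and 14.89 untreated and 12.89 and 13.20 with bortezomib at 24 h. In the cIAP2 line it read 15.31 and 15.21 untreated and 15.30 and 15.21 with bortezomib at 6 h, and 15.38 and 14.89 untreated and 13.70 and 13.96 with bortezomib at 24 h. The 6 conditions other than 24 h bortezomib each overlapped the next in order, with means from 14.89 to 15.26. At 24 h MYC fell to 32.02% of untreated (log2 difference -1.64 ± 0.14, adjusted p = 1.44e-05 in limma), and the 2 lines did not overlap there.

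CCND2, a partner of CDK4 and CDK6, read 14.76 and 14.98 untreated and 14.72 and 14.88 with bortezomib at 6 h in the control line, and 15.18 and 14.77 untreated and 11.64 and 11.85 with bortezomib at 24 h. The cIAP2 line gave 15.33 and 15.42 untreated and 15.19 and 15.15 with bortezomib at 6 h, and 15.51 and 15.17 untreated and 12.31 and 12.52 with bortezomib at 24 h. Each of the first 6 conditions in order overlapped the next, and 24 h bortezomib stood below them by more than the spread, with the control line lowest. CCND2 fell to 11.8% of untreated (log2 difference -3.08 ± 0.13, 95% interval -3.38 to -2.78, adjusted p = 4.76e-07 in limma).

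CCND3, another D-type cyclin, read 10.17 and 10.42 untreated and 10.11 and 10.37 with bortezomib at 6 h in the control line, and 10.39 and 10.74 untreated and 10.62 and 10.73 with bortezomib at 24 h. The cIAP2 line gave 10.48 and 10.61 untreated and 10.54 and 10.57 with bortezomib at 6 h, and 11.04 and 10.94 untreated and 10.47 and 10.698 with bortezomib at 24 h. Treated and untreated arrays overlapped at both times in the control line, and the highest level was that of the untreated cIAP2 line at 24 h. The log2 difference at 24 h was -0.15 ± 0.12, with a 95% interval from -0.42 to 0.13 (adjusted p = 0.394 in limma), so the falls measured in CCND2, FGFR3, MYC, NSD2 and MAF all lie outside its interval.

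CCND1 was spotted 10 times per array as well. Of its 160 spots, 21 were individually above background, never more than 4 on an array, and on 0 of the 16 arrays did 50% of them pass. Its signal lay between 2.63 and 4.57, which was below the lowest probe signal counted as above background on each of the 16 arrays. CCND1 was not tested, and its RNA was not detectable at this sensitivity.

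The fall at 24 h was present in both lines. In the control line, where 21% of all probes were called, the log2 differences were -3.23 for CCND2, -2.29 for FGFR3, -1.98 for MYC, -1.07 for NSD2 and -0.60 for MAF on the brightest probe of each gene, and all 5 passed the test. Of the other 4 NSD2 probes there, 2 passed (-1.49 and -0.59) and 2 did not (-0.71 and -0.87, adjusted p = 0.0867 and 0.179 in limma). In the cIAP2 line, where 28.6% of probes were called, they were -2.93, -3.20, -1.30, -0.86 and -1.21 in the same order, and all 5 passed again. They were, without the dim array, -2.82, -3.07, -1.17, -1.003 and -1.16 and all 5 passed, as did 26.7% of all probes, while 2 of the other NSD2 probes did not (-0.51 and -0.54, adjusted p = 0.0881 and 0.0668). That leaves 1 treated array in this line, which is taken to vary like the other conditions. CCND3 gave 0.11 in the control line and -0.40 in the cIAP2 line (adjusted p = 0.764 and 0.110 in limma). Without the dim array the averages over the lines were -3.03 for CCND2, -2.68 for FGFR3, -1.58 for MYC, -1.03 for NSD2 and -0.88 for MAF, and the same 5 genes were called, with 39.4% of all probes called. Arrays lay on 2 slides, and the 24 h comparison could be made within slide 1 for the cIAP2 line, with 2 treated and 1 untreated array, and within slide 2 for the control line, with 1 and 2. There the differences were -3.10 and -3.13 for CCND2, -3.13 and -1.61 for FGFR3, -1.54 and -1.83 for MYC, -0.86 and -0.91 for NSD2 and -1.24 and -0.61 for MAF.

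**Figure D2:**
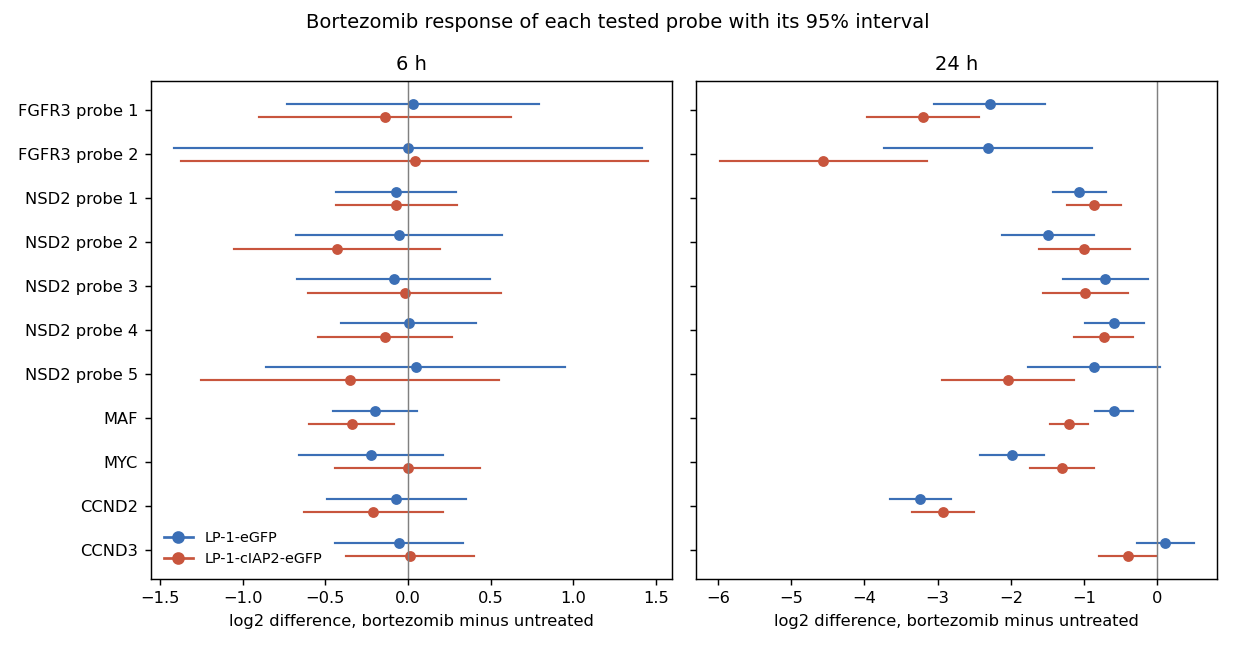
Log2 difference between bortezomib and untreated cells (x axis, with its own range in each panel) of each of the 11 tested probes (y axis, numbered from the brightest) at 6 h and at 24 h, with points for the estimate in each line and bars for its 95% interval. At 6 h the estimates lie near 0, and at 24 h all probes but that of CCND3 lie below 0 in both lines, from -0.59 to -4.56. The last value is that of the second FGFR3 probe in the cIAP2 line, and it was -3.28 without the dim array.

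Whether the lines responded differently was tested as the difference between their responses. At 24 h, 0 of the 6 genes passed, at a background of 0.0712% of probes. MAF came to -0.61 ± 0.16 (adjusted p = 0.389 in limma), MYC to 0.68 ± 0.28 (adjusted p = 0.598), FGFR3 to -0.91 ± 0.48 (adjusted p = 0.631) and CCND2 to 0.31 ± 0.27 (adjusted p = 0.664), as the cIAP2 line minus the control line. CCND3 came to -0.51 ± 0.24 (adjusted p = 0.626) and NSD2 to 0.20 ± 0.23 (adjusted p = 0.731). The second FGFR3 probe came to -2.25 ± 0.89 (adjusted p = 0.592), and to -0.97 without the dim array. The intervals were wide, from 0.06 to 1.30 for MYC and from -1.98 to 0.17 for FGFR3, and both intervals include a 2-fold difference. Again 0 of the 6 passed without the dim array, with -0.57 for MAF (adjusted p = 0.236), 0.81 for MYC (adjusted p = 0.442), -0.78 for FGFR3 (adjusted p = 0.848) and 0.42 for CCND2 (adjusted p = 0.832), while 0.274% of all probes were called. With single arrays left out, MAF passed only without the second replicate of the cIAP2 line at 24 h of bortezomib (-0.65, adjusted p = 0.00970), where 9338 probes were called against 24 with all arrays and the dim array alone stood for that condition. FGFR3 came to -1.59 without replicate 1 and to -0.23 without replicate 2 of the control line at 24 h of bortezomib, and over all arrays left out in turn CCND2 ran from 0.11 to 0.51 and MYC from 0.44 to 0.92, none called. At 6 h, 0 of the 6 passed at a background of 0.00297%, with differences between -0.17 and 0.22.

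The difference between the 24 h and the 6 h response passed the test for 5 of the 6 genes, at a background of 14.9% of probes, with -2.94 for CCND2, -2.69 for FGFR3, -1.53 for MYC, -0.90 for NSD2 and -0.63 for MAF, and -0.13 for CCND3. With more than 2-fold required as well, CCND2, FGFR3 and MYC remained, against 7.76% of all probes. NSD2 lost this call under another background correction, called normexp (-0.66, adjusted p = 0.201), and 3 of its other 4 probes missed the threshold. Untreated cells at 24 h against 6 h gave 0 calls among the 6 genes, at a background of 0.0089%, with log2 differences between -0.21 for FGFR3 and 0.36 for CCND3.

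Averaged over treatment and time, the lines differed in 3 of the 6 genes, all higher in the cIAP2 line. Here 16.1% of all probes were called and 6.26% were called higher. CCND2 was higher by a log2 difference of 0.48 ± 0.09 (adjusted p = 0.00654 in limma), FGFR3 by 0.64 ± 0.17 (adjusted p = 0.0295) and MYC by 0.35 ± 0.10 (adjusted p = 0.0373). CCND3 gave 0.23, MAF 0.09 and NSD2 -0.08, with adjusted p above the threshold, and 0 of the 6 genes were past 2-fold, against 4.35% of all probes. MAF gave 0.27 in untreated cells and -0.33 at 24 h of bortezomib, neither called (adjusted p = 0.0777 and 0.130 in limma). The ranges of the 8 arrays of each line overlapped in all 6 genes, and each range spans both treatments. The second FGFR3 probe gave 0.16 ± 0.32 (adjusted p = 0.784). By condition it gave 0.72 and 0.71 in untreated cells at 6 h and 24 h and 0.76 and -1.54 with bortezomib, and the last value includes the dim array. Without the dim array it gave 0.48 ± 0.13 and passed (adjusted p = 0.0302), beside 0.67 on the brighter probe (adjusted p = 0.0293). The calls of FGFR3 and MYC were lost when arrays were scaled to the 75th percentile (adjusted p = 0.112 and 0.118) and when arrays were weighted (adjusted p = 0.0748 and 0.101). With 1 array left out, FGFR3 was called only when that array was 1 of the 4 of 24 h bortezomib, and lost with each of the other 12 (0.62 to 0.66, adjusted p from 0.0509 to 0.0711), MYC was lost in 11 of 16 fits (0.29 to 0.36, adjusted p from 0.0635 to 0.0914), and CCND2 was called in all 16. With slide as a block, CCND2 (0.45, adjusted p = 0.0556) and MYC (0.33, adjusted p = 0.171) were lost and FGFR3 remained, and slide 1 held 6 of its 8 arrays from the cIAP2 line.

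In untreated cells FGFR3 was higher in the cIAP2 line by 0.91 ± 0.24, or 1.88-fold, which just passed the test (adjusted p = 0.04999 in limma) in a comparison that called 7.75% of probes, and its 4 arrays in each line did not overlap. The second probe gave 0.72 ± 0.45 and did not pass (adjusted p = 0.477). Taken at single times, 0 of the 6 genes were called between untreated lines at 6 h (3.09% of all probes) or at 24 h (2.77%), or with bortezomib at 6 h (3.31%). At 24 h of bortezomib the FGFR3 difference was -0.02 ± 0.34. MYC was the 1 gene called between the lines at 24 h of bortezomib (0.79 ± 0.20, adjusted p = 0.0467), where 5.92% of probes were called, and CCND2 gave 0.68 ± 0.19 there (adjusted p = 0.0686). The call of MYC was lost without the dim array (0.92 ± 0.22, adjusted p = 0.0509), CCND2 gave 0.78 (adjusted p = 0.0777) and FGFR3 0.11. None of the genes was called by either rule of the study's methods. The first was an adjusted p under 0.001 with more than 2-fold between untreated lines (2.37% of probes). The second was a p under 0.005 with more than 2-fold, taken here as unadjusted and between 8 and 8 arrays (3.54% of probes).

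**Figure D3:**
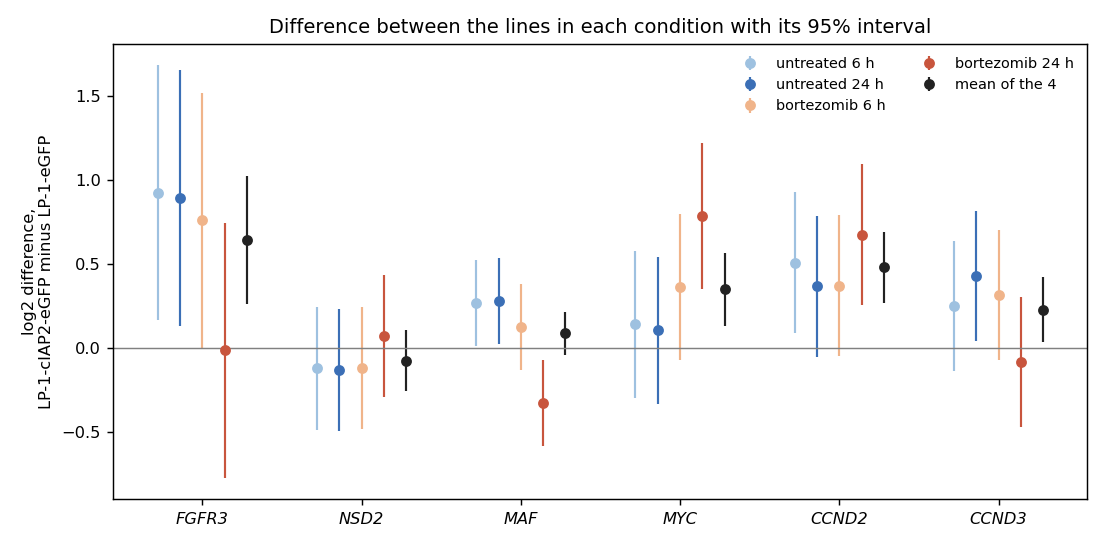
Log2 difference between the cIAP2 line and the control line (y axis) for the brightest probe of 6 genes (x axis) in each of the 4 treatment and time conditions and in their mean, with bars for the 95% interval. FGFR3 lies between 0.76 and 0.93 in 3 conditions and at -0.02 at 24 h of bortezomib, while MYC and CCND2 lie above 0 in all 4.

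Genes that act with these 7 were followed as lists, each given by the brightest tested probe of its genes. Scaling arrays to the 75th percentile moved the median of all probes at 24 h from -0.09 to 0.13, and changes below are read beside the median of all genes. No gene that was called in these lists turned its sign under 75th percentile scaling, normexp or the authors' table. Among 22 known MYC targets, mostly of ribosome assembly and nucleotide synthesis, 19 fell and 1 rose at 24 h, with a median log2 difference of -0.91. Among all 16398 named genes, 25.0% fell and 19.2% rose, with a median of -0.09. The 4 largest changes were those of SRM, the spermidine synthase (-2.26 ± 0.12, adjusted p = 1.09e-06 in limma), TERT, the telomerase catalytic subunit (-2.12), CAD, the enzyme that starts pyrimidine synthesis (-1.89), and BOP1, a ribosome assembly factor (-1.65). HSPD1, a mitochondrial chaperonin, was the gene that rose (0.58), and it is named because it was the only one. At 6 h HSPD1 was the 1 of the 22 that was called (0.48), and it was not called under 75th percentile scaling (0.62, adjusted p = 0.118) or normexp (0.43, adjusted p = 0.0691), while 4.45% of all genes were called higher and 3.93% lower. Between the lines 2 of the 22 were higher and 3 lower in the cIAP2 line, a median of 0.08, where 9.04% of all genes were higher and 12.7% lower. Under 75th percentile scaling 0 were higher and 2 lower, and under normexp 4 were higher and 3 lower. Without the dim array 4 were higher and 4 lower, where 15.5% of all genes were higher and 15.3% lower.

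The partners of MYC moved in both directions. Of 11 genes of its dimerization network, 3 rose and 5 fell at 24 h, where 19.2% of all named genes rose and 25.0% fell. The median of the 11 was -0.16, which was -0.36 under 75th percentile scaling. MXD1, which pairs with MAX in place of MYC and represses, rose by 1.28 ± 0.12 at 24 h and by 1.48 ± 0.13 at 6 h (adjusted p = 4.19e-05 and 6.10e-04 in limma) in a fit of 15 arrays, since its spot was left out on 1 untreated array. Its second probe gave 2.46 at 24 h. In the authors' table MXD1 gave 1.27 at 24 h and 0.40 at 6 h, neither called (adjusted p = 0.208 and 0.915). MYCL (-1.54) and MGA (-1.08) fell, and MXD4 rose (0.89). A second probe of MYCL gave 0.79 and that of MGA gave -0.27, neither called. MAX itself rose by 0.38, a call that was lost under 75th percentile scaling (0.13, adjusted p = 0.560). In the line comparison 12.7% of all named genes were lower in the cIAP2 line and 9.04% higher. Between the lines MYCN (-0.73) and MXD4 (-0.57) were lower and 0 of the 11 higher in the cIAP2 line, and 1 was higher without the dim array, where 15.5% of all genes were.

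For the D-type cyclins, 10 of 17 partners and genes of the retinoblastoma axis fell and 0 rose at 24 h, with a median of -0.58, and under 75th percentile scaling 11 fell and 2 rose. The shares of all named genes at 24 h were 25.0% lower and 19.2% higher. E2F2 (-2.60 ± 0.14, adjusted p = 1.04e-06 in limma) and E2F1 (-1.58), a pair of activating E2F factors, fell most, followed by RBL2, a retinoblastoma relative (-1.24), and CCNE2, an E-type cyclin (-0.79, with its second probe at -0.36 and not called). E2F3, another activating E2F factor, gave 0.27 and 0.46 on its 2 probes, neither called. The kinases CDK4 and CDK6 fell by 0.59 and by 0.60. E2F2 lay between 15.01 and 16.64 on the 12 arrays other than 24 h bortezomib and between 13.48 and 14.17 on those 4. Between the lines 5 of the 17 were higher and 1 lower in the cIAP2 line, led by the CDK inhibitors CDKN1A (1.71) and CDKN1C (1.11), by CCNE1 (0.78) and by E2F1 (-0.47). That comparison called 9.04% of all named genes higher and 12.7% lower. CDKN1A was above background on 5 of 8 arrays of the cIAP2 line and 3 of 8 of the control line. Without the dim array, 10 of the 17 were higher between the lines, where 15.5% of all genes were, and 3 rose at 24 h, where 23.7% of all genes did.

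Genes known to be high in myelomas with MAF expression fell as well, 4 of 5 at 24 h with 1 higher, and with a median of -1.78. For all named genes the shares at 24 h were 25.0% lower and 19.2% higher. The chemokine receptors CX3CR1 (-4.75 ± 0.44, adjusted p = 2.50e-05 in limma) and CCR1 (-3.41 ± 0.25, adjusted p = 7.04e-06) changed most, followed by DEPTOR, an inhibitor of mTOR (-1.78), while the kinase NUAK1 rose (0.87, with its second probe at -0.73 and not called). CX3CR1 was above background on 2 of the 4 treated arrays, so the size of its fall is not exact. In the cIAP2 line it read 3.59 on the dim array and 6.20 on its replicate. Integrin ITGB7 fell by 0.82. Between the lines, 3 of the 5 were higher in the cIAP2 line, which were CX3CR1 (1.58), CCR1 (1.02) and ITGB7 (0.43), while MAF itself was not called. ITGB7 lost this call under 75th percentile scaling (0.34, adjusted p = 0.0561). The line comparison called 9.04% of all named genes higher and 12.7% lower.

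On the side of FGFR3, of 12 feedback genes of receptor and ERK signalling 3 were higher and 3 lower at 24 h. These shares lie near those of all genes given above for that comparison. The median was -0.09, which turned to 0.16 under 75th percentile scaling, 0.09 under normexp and 0.03 in the authors' table. SPRY1, an inhibitor of receptor signalling, fell at both times (-2.87 at 24 h and -1.91 at 6 h), while the ETS factor ETV5 (2.30), the ERK phosphatase DUSP5 (2.07) and the early response gene IER3 (1.80) rose. At 24 h SPRY1, ETV5 and DUSP5 were each above background on 3 of 4 treated arrays. ETV5 and DUSP5 were so on 3 of 4 untreated arrays as well, so the sizes of their rises are not exact. Between the lines 5 of the 12 were lower and 1 higher in the cIAP2 line, with a median of -0.73 against -0.01 over all named genes, of which 12.7% were lower and 9.04% higher. This median was -0.53 under 75th percentile scaling and -0.39 under normexp, with 5 lower in each. The largest were DUSP6, another ERK phosphatase (-2.37 ± 0.25, adjusted p = 1.50e-04 in limma), ETV5 (-1.96), ETV4 (-1.28) and IER3 (-0.90), and SPRY2 (0.78) was higher, which is named as the 1 gene that was, and it was not called in the authors' table (0.42, adjusted p = 0.445). DUSP6 lay between 6.25 and 8.18 on the 8 arrays of the control line, all above background, and between 4.57 and 5.66 on those of the cIAP2 line, of which 4 were above background. ETV5 was above background on 3 and ETV4 on 5 of the 8 arrays of the cIAP2 line.

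Other fibroblast growth factor receptors and adaptors gave 1 higher and 2 lower of 10 at 24 h. These shares were no larger than those of all genes given above for that comparison. Their median was 0.01, which was -0.08 under normexp. Without the dim array 2 were higher, where 23.7% of all genes were. FGFR2, a second receptor of the family, fell at both times (-1.93 at 24 h and -1.13 at 6 h) on 16 arrays above background, FGFRL1, which lacks a kinase domain, fell by 0.92, and the adaptor SHC1 rose by 0.79 at 24 h and by 0.60 at 6 h. Between the lines FGFRL1 (-0.70) and the exchange factor SOS1 (-0.54) were lower and 0 of the 10 higher in the cIAP2 line. The shares of all genes for this comparison are those of the paragraph above. Without the dim array 1 was higher, where 15.5% of all genes were. Of 5 neighbours of NSD2 and FGFR3 on chromosome 4, 3 fell and 1 rose, beside the shares of all genes given above for 24 h. Their median was -0.42, and -0.69 under 75th percentile scaling. LETM1 (-1.22, with its second probe at 0.89 and not called), TACC3 (-1.08) and SLBP (-0.42) fell and MXD4, which is also in the MYC network, rose. At 6 h SLBP (0.45) and MXD4 (0.49) were higher than untreated. Both calls were lost under 75th percentile scaling (0.59 and 0.53, adjusted p = 0.0621 and 0.0852) and normexp (0.42 for each, adjusted p = 0.0638 and 0.188), and that of MXD4 also in the authors' table (0.49, adjusted p = 0.0540).

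**Figure D4:**
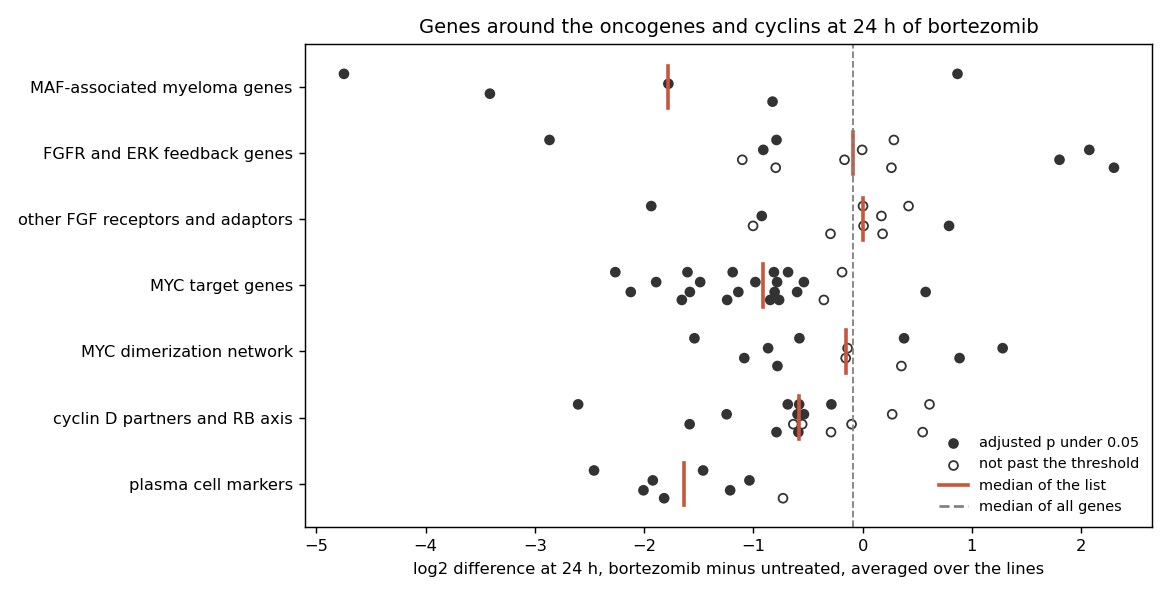
Log2 difference at 24 h of bortezomib, averaged over the lines (x axis), for each tested gene of 7 lists (y axis), with filled points for an adjusted p under 0.05, a red bar for the median of each list and a dashed line for the median of all genes, -0.09. MYC targets, cyclin partners, MAF-associated genes and plasma cell markers have medians from -0.58 to -1.78, while the feedback and receptor lists lie near 0.

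Plasma cell markers fell with the 5 genes. Of 8, 7 fell and 0 rose at 24 h, with a median of -1.64, where 25.0% of all named genes fell and 19.2% rose. SDC1 (-2.46), MZB1 (-2.01), CD38 (-1.92) and TNFRSF17 (-1.82) changed most, and JCHAIN gave -0.73 without a call. Their summed normalized signal, on a linear scale, was 149617 and 158614 on the cIAP2 and 157249 and 144265 on the control arrays of 24 h bortezomib, against 308271 to 456118 with a median of 378794 on the other 12, and XBP1, a factor of the secretory programme, gave the most on all 16 arrays. At 6 h SDC1 (-1.19) and XBP1 (-0.45) were lower than untreated. The call of XBP1 was lost under 75th percentile scaling (-0.23, adjusted p = 0.429 in limma). The part of these markers in the fall of the 5 genes was not tested. Of 4 testable markers of other cell types, 2 fell, PECAM1 (-4.12) and COL1A1 (-1.22), and 0 rose. COL1A1 was above background on 1 of the 4 treated arrays. It lost its call under 75th percentile scaling (adjusted p = 0.560 in limma) and under normexp (-0.36, adjusted p = 0.114). The sum of these markers lay between 375 and 1268 on the 4 arrays and between 2072 and 10838 on the other 12, with PECAM1, which plasma cells express as well, highest on 15 arrays and CD14 on the dim array. Between the lines SDC1 was higher (1.42) and CD38 lower (-0.55) in the cIAP2 line, and MZB1 was higher (0.50). MZB1 lost this call under 75th percentile scaling (0.43, adjusted p = 0.0977 in limma). The shares of all named genes between the lines were 9.04% higher and 12.7% lower. PECAM1 was the 1 of the 4 testable markers of other cell types that was lower in the cIAP2 line (-1.17, adjusted p = 6.42e-04 in limma, from -1.36 to -0.94 on its 3 probes), 2 of the 4 were lower without the dim array, and their part in the line difference of the 6 genes was not tested.

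Because the 4 arrays of 24 h bortezomib stand apart from the rest, the 6 genes were set against each other over the other 12 arrays, as a description. There Pearson's r among FGFR3, MAF, MYC and CCND2 lay between 0.50 and 0.74, NSD2 had r between -0.51 and -0.12 with these 4, and CCND3 had r between -0.72 with NSD2 and 0.62 with CCND2. These arrays share lines, slides and untreated or early conditions.

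The genes most like each of the 6 were taken by r over all 16 arrays among 9684 genes above background on all of them, so they share the 24 h difference, and r over the 12 arrays is given with it. MYC was most like CCND2 (r = 0.981 over 16 and 0.733 over 12), PAICS, an enzyme of purine synthesis (0.978 and 0.609), and SNORD86, a small nucleolar RNA (0.976 and 0.470). CCND2 was most like PAICS (0.993 and 0.788), SNORD86 (0.988 and 0.511) and TNFRSF13B, a receptor of B lineage cells (0.986 and 0.932). FGFR3 was most like NUBPL, which helps to assemble mitochondrial complex I (0.981 and 0.850), and the plasma cell marker MZB1 was also among its 3 (0.979 and 0.859). MAF was most like DNAAF5, an assembly factor of the dynein arms of cilia (0.984 and 0.935), then PMVK, an enzyme of the mevalonate pathway, and SLC25A5, an ADP and ATP carrier. NSD2 was most like JPT2 (0.984 and 0.533), then CPNE7 and TPCN1. CCND3 stood apart from these, with KLF12, a repressor, first (0.857 and 0.869), then B9D2 and SLC7A6OS.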

How the data were processed

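Gene expression was measured on Agilent SurePrint G3 Human arrays, 1 per sample. Per the file headers, the deposited intensity values were made by Agilent Feature Extraction 10.7.3.1, which subtracts the background of each spot, removes trends across the array and marks whether each spot had signal well above background. A deposited table of log2 values, which the authors normalized by quantiles in GeneSpring and centred per probe, served as an alternative.

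Outlier spots were dropped, log2 signals were averaged per probe, and quantile normalization was run over the 16 arrays. A probe was tested when both arrays of 1 condition or more had it above background, which held for 33731 (66.7%). A probe counted as above background when at least 50% of its spots did. Of the gene probes, 28174 (55.7%) were matched to a symbol through RefSeq (GRCh38.p14), and the probe with the highest mean signal stands for a gene. limma 3.58.1 (lmFit, contrasts.fit and eBayes, in R 4.3.3) estimated a mean for every condition, with 1.61 prior degrees of freedom, so the spread was shared little between probes. Errors are standard errors of the fit. p-values were adjusted by Benjamini-Hochberg over all probes. The genes and lists were chosen with earlier results of these data known. From each list up to 4 genes past an adjusted p of 0.05 with the largest change are named, together with genes needed as a reference. The fit was tested on simulated data, where 41% of 2-fold and 84% of 4-fold line differences and 27% and 65% of 24 h responses were recovered among 33731 probes. False calls made up 7.41% of the simulated line calls and 4.17% of the 24 h calls. Alternatives were the scaling, background correction, filter, authors' table, slide and replicate blocks, array weights, a fold limit, the average of a gene's probes and leaving out each array. Arrays limit precision by their number, 2 per condition. All deposited samples given were used. Results of some genes in these lists are not reported here.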

Additional observations from a re-analysis of the deposited data

How the results depend on the processing

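The falls of CCND2, FGFR3, MYC, NSD2 and MAF at 24 h of bortezomib kept their direction and their call under each alternative run, including each array left out, except that NSD2 and MAF were below a 2-fold limit, with ranges from -3.29 to -2.96, -3.09 to -2.40, -1.89 to -1.52, -1.12 to -0.75 and -1.16 to -0.88. The line difference was less stable. FGFR3 was lost with normexp (0.56, adjusted p = 0.0996 in limma), with no filter (0.64, adjusted p = 0.0548) and with its probes averaged (0.40, adjusted p = 0.273), and MYC with no filter (0.35, adjusted p = 0.0864). CCND3 passed when only probes above background on all arrays were tested (0.23, adjusted p = 0.0408). The cause was not tested, but a longer or shorter list of probes changes the adjustment itself.

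The number of the 6 genes called between the lines was 3, and was 1 with 75th percentile scaling, no filter, slide as a block and array weights, 2 with normexp, 4 with only probes above background on all arrays, and 0 with a 2-fold limit as well. At 6 h it was 0, and 1 with only probes above background on all arrays and with array weights, which was MAF. At 24 h it was 5, and for the change of response from 6 h to 24 h 5, with 4 under normexp for the change, where NSD2 was lost, and with a 2-fold limit 3 in both. Leaving out single arrays gave 1 to 3 between the lines, 0 to 1 at 6 h, 5 throughout at 24 h and for the change of response, and 0 to 1 for the difference in response at 24 h.

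Over all probes, the line comparison called 5428, and 3104 with slide as a block and 1466 with a 2-fold limit. Bortezomib at 6 h called 1999, with 1069 without a filter, 3059 with only probes above background on all arrays, 6202 with array weights and 571 with a 2-fold limit, and at 24 h 11753, with 5792 past 2-fold. The difference in response at 6 h called 1 probe, 5 with array weights and 0 with 75th percentile scaling, normexp, no filter, all-array probes, the replicate block or slide as a block. At 24 h it called 24, with 9 under 75th percentile scaling, the authors' table and slide as a block, 71 with normexp, 80 with all-array probes, 15 with the replicate block and 0 with array weights. Untreated cells over time gave 3, with 0 under 75th percentile scaling, no filter or slide as a block, 1 with normexp, 10 with all-array probes and 21 with array weights. The change of response gave 5038, and 2616 past 2-fold. The 3-way rule of the study's methods called 799, with 384 for all-array probes and 438 with slide as a block, and the 2-group rule 1194, with 616 under normexp and 316 for all-array probes. Under 75th percentile scaling the 2-group rule gave 379 higher and 762 lower, against 240 and 954. With 1 array left out these counts ran from 4043 to 12301 between the lines, 871 to 4386 at 6 h, 9644 to 18040 at 24 h, 0 to 6 and 0 to 9338 for the difference in response at 6 h and 24 h, 0 to 17 over time, 3430 to 12097 for the change of response, 575 to 1069 for the 3-way and 1097 to 1325 for the 2-group rule. The highest counts came mostly without an array of the cIAP2 line at 24 h of bortezomib, replicate 1 or 2.

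Signs that turned belonged to differences that were not called in either setting. At 6 h, 75th percentile scaling gave 0.13 for FGFR3, 0.036 for MYC, 0.013 for CCND2 and 0.0042 for CCND3, and single arrays left out gave -0.088 to 0.045 for CCND3. NSD2 between the lines was 0.020 with normexp. For the difference in response at 6 h, NSD2 was -0.018 with 75th percentile scaling, -0.011 in the authors' table, -0.17 with its probes averaged and -0.068 to 0.070 with single arrays left out, CCND3 was -0.021 with normexp and -0.067 to 0.20 with arrays left out, and FGFR3 was 0.21 with slide as a block. At 24 h NSD2 was -0.18 with its probes averaged. In untreated cells over time MAF was 0.017 with 75th percentile scaling, and with arrays left out MYC ran from -0.23 to 0.016 and CCND2 from -0.067 to 0.14.

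Replicate numbers did not pair the samples, since the r of replicate differences between conditions ran from -0.11 to 0.24 with 7 of 28 above 0.1. The replicate block gave 12548 probes at 24 h of bortezomib and changed no call of the 6 genes. Without the dim array, a setting chosen after seeing the data, 19 of 22 MYC targets and 10 of 17 cyclin partners counted as lower at 24 h. With 2 arrays per condition no single array can be tested as an outlier, and on simulated data 27% of 2-fold changes at 24 h were recovered.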
